A study of Mus musculus with 2 samples.

Results

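The cells described here come from a gate for adipose progenitor cells of gonadal fat and have the most RNA of Vtn, Cxcl14, G0s2 and Rem1. The group is labelled committed preadipocytes and called the Vtn/Cxcl14/G0s2 cells below. Each cell was scored by the mean of the natural log of 1 plus the UMIs per 10000 of these 4 genes. A UMI, or unique molecular identifier, is a counted RNA molecule. The 400 cells with the highest score were taken from 7010 gate cells of both libraries together (5.71%). The other 6610 gate cells are the cells they were compared with. The 7010 cells form a gate defined by over 1000 and under 7000 detected genes, under 8% of UMIs from mitochondrial genes, fewer than 5 UMIs of the mesothelial genes Msln, Upk3b, Krt19, Lrrn4 and Upk1b summed, under 1% of UMIs from the antibody genes Igkc, Ighm, Igha and Jchain, fewer than 3 of Calca and Ncam1, and fewer than 10 of Pi16 and Dpp4. The gate aims at adipose progenitor cells and does not hold these alone. Clusters of 147, 85 and 25 of its cells were led by Ccl21a, Lyz2 and Mcpt4, genes of other cell types. Since measured RNA chose the 400 cells, every comparison of them with the other gate cells is a description and carries no test.

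The study asked how cells that express the senescence gene p16 differ from the rest of the adipose stroma in aged mice. Male p16-CreERT2/R26-LSL-tdTomato mice, 18 months old, received tamoxifen, so that cells with an active p16 promoter became tdTomato positive. CD31- CD45- cells of the gonadal fat were sorted into tdTomato-positive (Tom+) and tdTomato-negative (Tom-) cells, and each fraction gave 1 single-cell library. Both libraries come from the same genotype and the same tamoxifen treatment and differ in the sorted fraction. The reporter records p16 promoter activity at the time of tamoxifen, all animals were male, and how many mice were pooled is not given in the sources used here. With 1 library per fraction, a difference between Tom+ and Tom- cells and a difference between 2 library preparations cannot be told apart. The intervals given here are exact 95% intervals for counting error only.

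The Tom+ library held 5566 barcodes with 61119807 UMIs and the Tom- library 11838 barcodes with 96872394 UMIs. Of these, 2819 and 4191 were gate cells. The Vtn/Cxcl14/G0s2 cells had a median of 12660 UMIs in the Tom+ library (lowest 3661, highest 58762) and 10719 in the Tom- library (lowest 1861, highest 29786), against 13962 and 11053.5 in the other gate cells. Summed, they gave 988688 and 3726324 UMIs, so the Tom+ sum is the shallower. Their median mitochondrial share was 3.75% and 3.57%, against 4.23% and 3.84%.

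White adipose tissue makes new adipocytes from mesenchymal progenitors that line its vessels and interstitium. Progenitors rich in Pi16, Dpp4 and Cd55 are regarded as early, and preadipocytes are regarded as committed once they express Pparg, the nuclear receptor that drives adipocyte differentiation, together with its targets for fatty acid uptake and storage. G0s2 is such a target and inhibits the lipase that opens triglyceride stores. Vtn encodes vitronectin, an adhesive glycoprotein bound by integrins, Cxcl14 a chemokine, and Rem1 a small GTPase that restrains voltage-gated calcium channels.

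The 4 genes of the score lie on different chromosomes, Vtn at chr11:78499091-78502324 (plus strand), Cxcl14 at chr13:56288643-56296551 (minus strand), G0s2 at chr1:193272161-193273217 (minus strand) and Rem1 at chr2:152626951-152635198 (plus strand) of mm10. The stretches of 250 bases before their RefSeq start sites (build GRCm38.p6) are printed so that the promoters of the genes that chose the cells can be compared, with that of Plin2, a lipid droplet gene that stood out beside them. Capitals mark AGGTCA, the core motif of nuclear receptors such as PPAR-gamma, TATAAA, the TATA box, and GGGCGG, the GC box, on either strand. Each runs 5′ to 3′ on the strand of its gene, at chr11:78498870-78499119, chr13:56296552-56296801, chr1:193273189-193273438, chr2:152626758-152627007 and chr4:86670060-86670309 in the order of the lines.
Vtn: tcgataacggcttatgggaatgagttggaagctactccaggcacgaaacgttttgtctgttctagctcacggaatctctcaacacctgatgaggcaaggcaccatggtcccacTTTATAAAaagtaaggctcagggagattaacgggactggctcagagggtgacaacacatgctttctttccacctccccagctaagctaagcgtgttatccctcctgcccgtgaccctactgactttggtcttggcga
Cxcl14: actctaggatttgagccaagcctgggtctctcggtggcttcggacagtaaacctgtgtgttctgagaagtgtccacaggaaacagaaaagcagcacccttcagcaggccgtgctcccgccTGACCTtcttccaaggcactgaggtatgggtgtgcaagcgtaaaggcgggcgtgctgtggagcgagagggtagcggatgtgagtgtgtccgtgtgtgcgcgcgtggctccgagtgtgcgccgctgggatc
G0s2: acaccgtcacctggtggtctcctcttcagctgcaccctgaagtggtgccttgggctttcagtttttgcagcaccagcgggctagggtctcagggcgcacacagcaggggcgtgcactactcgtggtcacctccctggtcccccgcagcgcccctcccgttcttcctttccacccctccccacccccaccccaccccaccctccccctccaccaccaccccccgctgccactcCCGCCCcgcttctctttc
Rem1: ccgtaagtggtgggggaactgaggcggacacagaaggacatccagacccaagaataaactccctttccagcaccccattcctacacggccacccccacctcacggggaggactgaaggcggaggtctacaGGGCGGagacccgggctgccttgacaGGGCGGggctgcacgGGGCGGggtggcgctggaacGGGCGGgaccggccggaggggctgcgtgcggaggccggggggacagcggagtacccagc
Plin2: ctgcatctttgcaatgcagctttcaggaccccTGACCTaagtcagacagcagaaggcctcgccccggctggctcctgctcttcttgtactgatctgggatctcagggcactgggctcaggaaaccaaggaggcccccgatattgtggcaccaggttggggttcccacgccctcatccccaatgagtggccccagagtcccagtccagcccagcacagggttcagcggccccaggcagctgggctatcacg
The Vtn stretch held the TATA box letters, on overlapping matches of both strands, and no GC box. Of the 3 motifs the Rem1 and G0s2 stretches held GC boxes alone. AGGTCA stood in the Cxcl14 and Plin2 stretches, on the opposite strand in both. Of the 4 score genes and the 25 leading genes described below, 19 of 29 matched the RefSeq table, with 27 promoters of 300 bases (250 before and 50 after the start). AGGTCA was in 22.2% of them against 16.3% of 32851 mouse promoters, GGGCGG in 55.6% against 35.7%, TATAAA in 7.41% against 13.6%, the AP-1 motif TGANTCA in 14.8% against 7.81%, the C/EBP motif TTGCNNAA in 11.1% against 10.8% and the E-box CANNTG in 66.7% against 72.3%, all searched on both strands. These are matches of letters and not binding sites.

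Some barcodes occur in both libraries, 2224 in all and 302 among gate cells, and 9 of the 400 cells carry one (6 Tom+ and 3 Tom-). For the 6 Tom+ cells and 1 Tom- cell the same barcode in the other library held between 531 and 1354 UMIs, far below the 21560 to 58762 UMIs of the cell itself. The other 2 Tom- cells had 1861 and 1969 UMIs against 1242 and 1252. Without cells whose barcode is in both libraries, 16.1% of the group was Tom+, against 17.25% with them. Among the 400, 4 cells, 2 in each library, carried RNA of mature adipocytes (at least 5 UMIs of Adipoq, Plin1, Cidec and Car3 together). Both Tom+ cells of the 4 are among the 6 with shared barcodes. Most results that rest on the 4 cells are given with and without cells rich in adipocyte RNA. Of the other gate cells, 3 Tom+ and 14 Tom- cells passed the same limit and were left out with them. Scrublet, a doublet caller, marked none of the 400 cells. It marked 1.82% of the filtered Tom- cells but only 0.0568% of the filtered Tom+ cells. That is so few that it may not have worked in the Tom+ library, which was not tested.

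Vtn/Cxcl14/G0s2 cells were found in both libraries and made up a larger share of the Tom- gate. They were 69 of 2819 Tom+ gate cells (2.45%, 1.91 to 3.09%) and 331 of 4191 Tom- gate cells (7.90%, 7.10 to 8.76%), a share 3.23-fold higher in the Tom- library (2.48 to 4.25). Tom+ cells were 17.25% of the group and 40.2% of the gate. Along the ranking by score the Tom+ share was 14%, 15%, 24% and 16% in ranks 1 to 100, 101 to 200, 201 to 300 and 301 to 400, 28.5% in ranks 401 to 600, 42.3% in ranks 1601 to 3200 and 45.4% in ranks 3201 to 7010. The score used the same 4 genes in both libraries, and the Tom- gate cells outside the group also had more Vtn (66.4 against 33.0 CPM, the gene's UMIs in the summed cells scaled to the total of all their UMIs) and Cxcl14 (46.0 against 23.5 CPM).

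The score had no gap at the limit. The last cell taken, from the Tom- library, scored 0.979 with 41 UMIs of G0s2 and none of the other 3 genes. The first cell left out, from the Tom+ library, scored 0.978 with 16 UMIs of Cxcl14 and 7 of G0s2. The 400 are thus the upper end of a continuous range, and cells just outside them are much like the last ones inside.

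**Figure D1:**
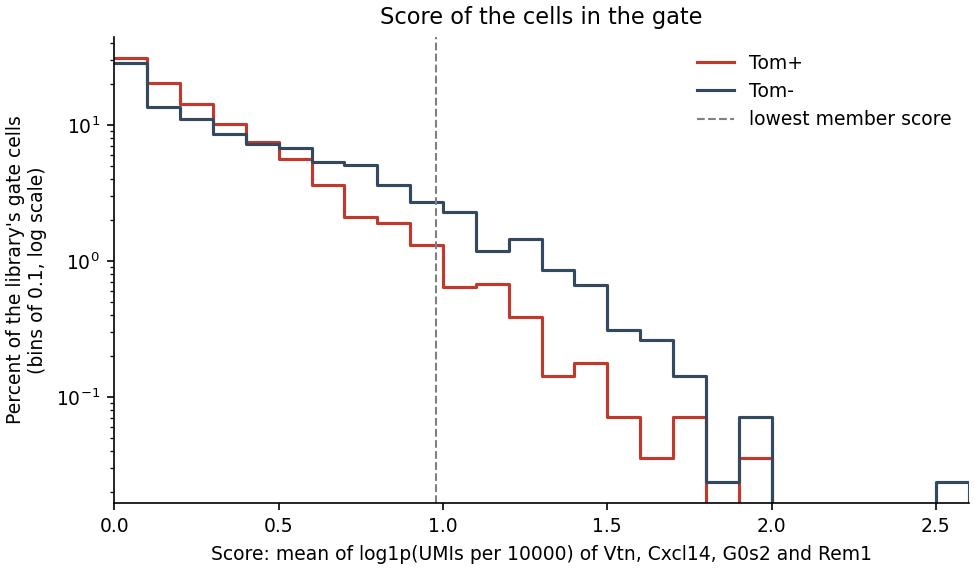
Score of every gate cell (horizontal axis, mean of the natural log of 1 plus UMIs per 10000 of Vtn, Cxcl14, G0s2 and Rem1) against the percent of each library's gate cells in bins of 0.1 (vertical axis, log scale). The curves decline smoothly through the dashed line at the lowest score taken, and the Tom- curve lies above the Tom+ curve on most of the range to its right.

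Few of the 400 cells carried all 4 genes. G0s2 was the most widely detected, with at least 1 UMI in 98.6% of Tom+ and 94.9% of Tom- cells of the group, followed by Vtn (81.2% and 84.3%), Cxcl14 (59.4% and 64.7%) and Rem1 (49.3% and 59.2%). All 4 were detected in 89 cells (22.25%), 3 in 229, 2 in 77 and 1 in 5. In the other gate cells all 4 were detected in 63 of 6610 (0.953%). With every cell thinned to 6959 UMIs, G0s2 was detected in 93.8% and 92.4% of the group and in 1.20% and 5.11% of mesothelial cells of the same libraries, which serve as the level of free RNA. The mesothelial cells had median depths of 17891 and 14678 UMIs.

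By level, G0s2 led with 1641 CPM in the Tom+ cells of the group and 1014 CPM in the Tom- cells, against 136 and 142 CPM in the other gate cells. Cxcl14 was at 423 and 527 CPM against 23.5 and 46.0 CPM. Vtn was at 239 and 320 CPM against 33.0 and 66.4 CPM, and Rem1 at 57.7 and 89.9 CPM against 17.3 and 22.8 CPM. These values chose the cells. The 2 Tom+ cells rich in adipocyte RNA held 208 and 353 UMIs of G0s2 and none of Vtn, and without them the Tom+ level of G0s2 was 1182 CPM.

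To describe how far the 4 genes go together in these cells, cells were also chosen on any 3 of them and the gene left out was read. The 4 genes were picked with earlier results of these data known, so this is a description and not an independent check. Each was higher in the 400 cells chosen on the other 3 than in the remaining gate cells of the same library. The log2 ratio was 1.54 in the Tom+ and 1.05 in the Tom- library for Vtn, 1.78 and 1.10 for Cxcl14, 1.5 and 1.14 for G0s2, and 0.62 and 1.19 for Rem1. The lowest bound of these 8 intervals was 0.07, for Rem1 in the Tom+ library, which rested on 33 UMIs. These ratios are smaller than those of the same genes in the 400 cells chosen on all 4.

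Most genes had like levels in the Vtn/Cxcl14/G0s2 cells and in the other gate cells. Among 8084 genes with at least 10 CPM in the gate, leaving out the score and gate genes, the median log2 ratio was 0.02 in the Tom+ and 0.07 in the Tom- library. In both libraries 16 genes (0.198%) were at least 2-fold higher in the group and 106 (1.31%) at least 2-fold lower. The 16 higher genes were Cd300lg, Cldn15, Meox1, P2ry14, Hsd11b1, Prkar2b, Ppp1r14a, Adap2, Fgf10, P2ry1, Plin2, Sgip1, Lpl, Kcnk2, Lrrn1 and Msc. Without the cells rich in adipocyte RNA the same 16 genes passed, with Spry1, Tmem204 and Carmn added, and 100 genes were lower.

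**Figure D2:**
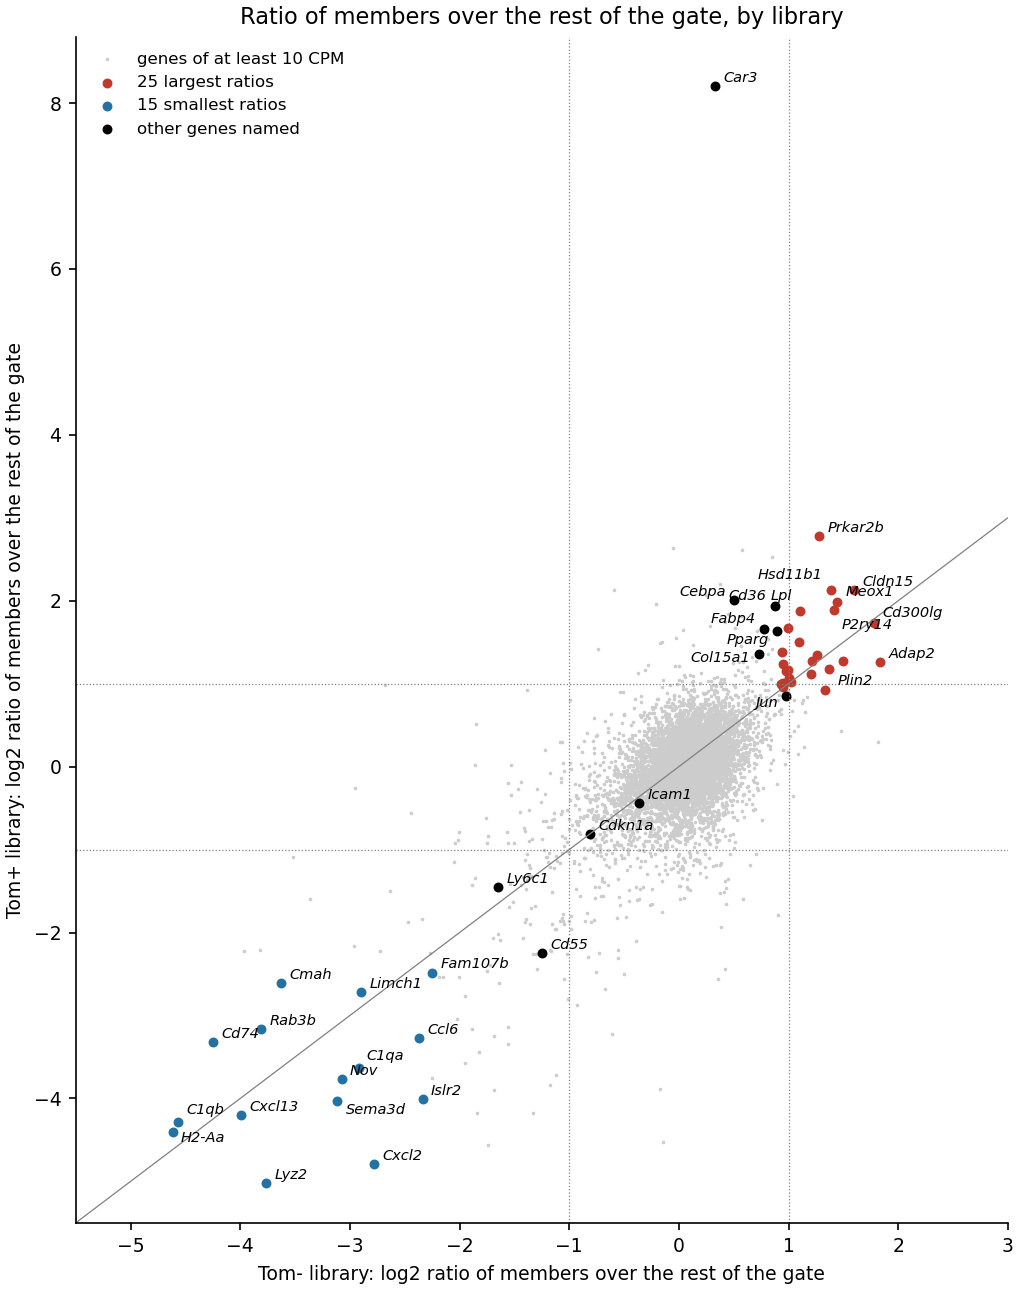
Each point is a gene of at least 10 CPM, placed by its log2 ratio of the 400 Vtn/Cxcl14/G0s2 cells over the other gate cells in the Tom- library (horizontal axis) and in the Tom+ library (vertical axis). Dotted lines mark 2-fold and the solid line equality of the libraries; red points are the 25 genes with the largest and blue points the 15 with the smallest ratio in the library nearer 0, and genes without a UMI in the group are drawn at a bound of 3 UMIs. The gene furthest up, Car3 (8.21), has its Tom+ UMIs in 2 cells rich in adipocyte RNA, and Prkar2b (2.78) has 32.3% of them in 1 cell.

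The most abundant of these genes act on lipid and glucocorticoid. Hsd11b1, the enzyme that regenerates active glucocorticoid inside cells, was at 503 CPM in the Tom+ and 685 CPM in the Tom- cells of the group, against 115 and 262 CPM in the other gate cells. Its log2 ratios were 2.13 (2.0 to 2.27) and 1.38 (1.32 to 1.45). Hsd11b1 (chr1:193221634-193264075, minus strand) lies 8085 bases from G0s2 on the same strand. Its ratios were 2.15 and 1.38 in cells chosen without G0s2, as large without the neighbouring gene in the score. At 6959 UMIs per cell it was detected in 84.4% of Tom+ and 89.4% of Tom- cells of the group, 37.1% and 59.4% of the other gate cells and 0.80% and 5.33% of mesothelial cells.

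Lpl, which frees fatty acids from lipoproteins, was the most abundant of the 16 at 3470 CPM in the Tom+ and 2008 CPM in the Tom- cells of the group, against 942 and 935 CPM. The cell with the most Lpl held 19.4% of its Tom+ UMIs, and without the cells rich in adipocyte RNA the log2 ratios were 1.56 and 1.09, against 1.88 and 1.10 with them. Plin2, a coat protein of lipid droplets whose promoter is printed above, was at 505 and 504 CPM against 222 and 195 CPM. Its log2 ratios were 1.18 and 1.37, and 1.15 and 1.39 without those cells. Mesothelial cells carried Plin2 too, in 33.6% and 41.0% of thinned cells, against 84.4% and 71.4% of the group. Ephx2, a hydrolase of lipid epoxides, was at 31.4 and 23.4 CPM against 12.0 and 12.2 CPM, just under 2-fold in the Tom- library.

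Receptors, channels and growth factors formed the next set. P2ry14, a receptor for nucleotide sugars, was at 48.5 and 54.7 CPM in the Tom+ and Tom- cells of the group against 13.1 and 20.6 CPM. P2ry1, a receptor for ADP, was at 29.3 and 52.1 CPM against 12.1 and 22.5 CPM. Kcnk2, a potassium channel, was at 23.3 and 23.1 CPM against 8.18 and 10.8 CPM. All 3 were higher in the group in each library. Fgf10, a growth factor of the stroma, was at 22.3 and 27.9 CPM against 8.78 and 11.7 CPM, on 22 UMIs in the Tom+ cells. Its Tom+ log2 ratio, 1.34, was -0.13 (-1.21 to 0.76) in cells chosen without Cxcl14. Spry1, an inhibitor of receptor tyrosine kinase signalling, was at 234 and 346 CPM against 124 and 137 CPM. Its relative Spry4 was at 43.5 and 40.8 CPM against 22.4 and 21.1 CPM.

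Cd300lg and Cldn15 stood at low levels with large ratios. Cd300lg, a receptor of the immunoglobulin superfamily, was at 39.4 and 28.7 CPM in the Tom+ and Tom- cells of the group against 11.9 and 8.37 CPM. Cldn15, a tight junction claudin, was at 88.0 and 68.7 CPM against 20.2 and 22.7 CPM. Mesothelial cells express Cldn15 strongly, with a UMI in 76.8% and 75.3% of thinned cells, against 43.8% and 33.2% in the group and 9.96% and 11.5% in the other gate cells. Of 11 mesothelial markers 1 was tested, Wt1, since the others are gate genes or under 10 CPM. It was at 104 CPM in the Tom+ and 167 CPM in the Tom- cells of the group, with a log2 ratio of -0.81 and -0.72. With 1 marker, whether mesothelial RNA has a part in the Cldn15 level was not tested. Meox1, a homeobox factor, was at 35.4 and 29.3 CPM against 8.98 and 10.7 CPM. Its ratio depended on Cxcl14 in the score, with log2 values of 1.98 and 1.45 in the group and 0.82 and 0.12 in cells chosen without Cxcl14.

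Signalling and contractile regulators completed the list. Ppp1r14a, an inhibitor of myosin phosphatase, was at 36.4 and 73.3 CPM in the Tom+ and Tom- cells of the group against 15 and 26.0 CPM. Adap2, a regulator of Arf GTPases, was at 22.3 and 37.8 CPM against 9.30 and 10.6 CPM. Prkar2b, a regulatory subunit of protein kinase A, was at 100 and 21.7 CPM against 14.6 and 8.95 CPM. Its Tom+ level was 45.7 CPM without the cells rich in adipocyte RNA. Sgip1, an endocytic adaptor, had log2 ratios of 1.12 and 1.20, Lrrn1, a leucine-rich repeat membrane protein, 1.02 and 1.02, and Msc, a basic helix-loop-helix repressor, 1.06 and 1.0. Among the remaining leading genes, the long noncoding RNA Carmn had 1.67 and 0.99, Tmem204 1.17 and 1.0, Ogfrl1 1.16 and 0.98, Adam23 1.01 and 0.95, and the cation exchanger Slc24a3 0.99 and 0.93.

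Genes of leukocytes and chemokines were among those lower in the Vtn/Cxcl14/G0s2 cells. Of the 15 with the smallest ratios, H2-Aa and Cd74 belong to antigen presentation, C1qa and C1qb to the complement of macrophages, and Lyz2 and Ccl6 to myeloid cells. Lyz2 was at 5.06 and 1.88 CPM in the Tom+ and Tom- cells of the group against 164 and 25.5 CPM. C1qa had no UMI in the group and 37.6 and 6.10 CPM in the other gate cells, so with 3 UMIs as the bound its log2 ratio was at most -3.63 and -2.92. Of the small clusters in the gate 1, of 85 cells, was led by Lyz2 and C1qa, and 1 of its cells was of the group. Without the 271 cells in clusters under 200 cells, 4 of them of the group, 87 genes were at least 2-fold lower, and 15 were higher.

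Cxcl13, a B cell chemoattractant, was at 2.02 CPM in the Tom+ and 7.51 CPM in the Tom- cells of the group against 37.2 and 119 CPM. Cxcl2, a neutrophil chemoattractant, was at 2.02 and 26.0 CPM against 56.1 and 179 CPM. The rest of the 15 were genes of the stroma, the vesicle protein Rab3b, the guidance cue Sema3d, the matricellular Nov, and Limch1, Cmah, Islr2 and Fam107b. Their log2 ratios lay between -2.25 and -4.03, on no more than 20 UMIs of each gene in each library, and none of Fam107b in the Tom+ cells.

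The most abundant transcripts of the group were those of the stroma at large. Gsn, an actin-severing protein, and Dcn, a small proteoglycan, had log2 ratios of 0.45 and 0.47 and of 0.10 and 0.28 in the Tom+ and Tom- libraries. Malat1, Fos, Junb, Actb, the mitochondrial genes mt-Co3, mt-Co1 and mt-Atp6, and Jun made up the rest of the 10. Jun, an early response gene, was at 4871 CPM in the Tom+ cells of the group, a log2 ratio of 0.85, with 0.98 in the Tom- library. Of 18 genes induced by tissue dissociation, none passed 2-fold in both libraries, and their median log2 ratios were 0.09 and 0.19. The part of dissociation in these results was not tested.

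Whether the cells fit their name was read from marker lists. Of 11 committed preadipocyte markers 10 reached 10 CPM, and 8 of 10 in the Tom+ and 9 of 10 in the Tom- library were higher in the group. Their median log2 ratio was 1.09 and 0.74, and 0.79 and 0.73 without the cells rich in adipocyte RNA. Only Lpl passed 2-fold in both libraries, 1 of 10 against 0.198% of all genes. In cells chosen without Cxcl14 or without G0s2 its Tom- log2 ratio was 0.76 and 0.95, under 2-fold. Icam1, a marker often used to sort these cells, was not higher, at 154 CPM in the Tom+ and 197 CPM in the Tom- cells of the group against 208 and 253 CPM. Dlk1, the preadipocyte factor, had no UMI in the group. With 1 of 10 markers past 2-fold, the cells are called here by the genes that chose them.

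Pparg was at 65.7 CPM in the Tom+ cells of the group against 21.2 CPM in the other gate cells, and at 44.5 against 24.0 CPM in the Tom- library. The log2 ratios were 1.63 (1.24 to 2.0) and 0.90 (0.65 to 1.13). The Tom+ ratio was 0.24 for the 200 highest cells and 0.42 with a score without G0s2. The 14 Tom+ cells of ranks 1 to 100 were at 5.59 CPM, below the other gate cells. With 178851 UMIs of all genes in these 14 cells, that level rests on very few Pparg UMIs and is uncertain. The Tom+ value leaned on 2 cells, which held 14 and 15 of its 65 UMIs, and without the cells rich in adipocyte RNA the ratios were 0.92 and 0.93. At 6959 UMIs per cell Pparg was detected in 21.9% and 26.6% of the group, 13.2% and 13.8% of the other gate cells and 2.0% and 0.88% of mesothelial cells. Most Vtn/Cxcl14/G0s2 cells thus had no Pparg UMI, at a depth where such a low gene is often missed.

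The PPAR-gamma targets and the lipid genes were read in the same way. Of 6 tested PPAR-gamma targets Lpl and Plin2 passed 2-fold in both libraries, against 0.198% of all genes. In cells chosen without Cxcl14 or without G0s2 neither gene passed in both. The Tom- log2 ratio of Lpl was then 0.76 and 0.95, and the Tom+ ratio of Plin2 0.87 and 0.88. For the 6 targets in the group the median log2 ratio was 1.42 in the Tom+ and 1.07 in the Tom- library. Without the cells rich in adipocyte RNA it was 0.71 and 1.10. Angptl4, a secreted inhibitor of lipoprotein lipase, was at 496 and 446 CPM against 313 and 200 CPM. Fabp4, the adipocyte fatty acid binding protein, was at 3978 and 1825 CPM against 1264 and 1065 CPM. The 2 Tom+ adipocyte-rich cells held 630 and 1545 of its 3933 Tom+ UMIs, and the log2 ratios were 1.65 and 0.78 with such cells and 0.63 and 0.79 without them. Of 18 genes of lipid uptake and droplets the same Lpl and Plin2 passed, and the Tom+ median of 0.94 was 0.17 without those cells, beside 0.19 and 0.20 in the Tom- library. Cebpa, the partner factor of Pparg, had 2.01 and 0.51, and 1.12 and 0.55 without them.

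None of 15 adipogenic factors passed 2-fold in both libraries, with medians of 0.16 and 0.32, and none of 7 tested factors against adipogenesis did, with medians of -0.08 and 0.33. Cebpb, an early factor, was at 1658 and 2673 CPM in the Tom+ and Tom- cells of the group against 1783 and 3183 CPM. Zfp423, a preadipocyte determination factor, was at 14.2 and 14.2 CPM against 18.1 and 11.3 CPM.

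Markers of mature adipocytes sat in a handful of cells. In the Tom+ group all 323 UMIs of Car3 and all 129 of Plin1 came from 2 cells, of ranks 241 and 323, with 31963 and 58762 UMIs. Both had 1 UMI of Pdgfra, the progenitor receptor, no Vtn and no tdTomato UMI. Their barcodes were also listed in the Tom- library with 861 and 1354 UMIs, among them 4 and 3 of Car3, 29 and 49 of Fabp4 and 11 and 12 of G0s2. Whether RNA of 1 library was also read in the other was not tested, and it would touch every ratio of Tom+ over Tom- cells. The other 67 Tom+ cells had no UMI of Adipoq, Plin1, Cidec or Car3. In the Tom- group the 2 adipocyte-rich cells held 49 and 28 of 85 Car3 UMIs. Their part in the results was not tested beyond leaving the cells out.

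The early interstitial progenitor markers were low in the group. Of 7 tested, with Pi16 and Dpp4 set aside as genes of the gate, 6 were at least 2-fold lower in both libraries (1.31% of all genes were), with medians of -2.25 and -1.65. Cd55, which shields cells from complement, was at 27.3 CPM in the Tom+ and 51.0 CPM in the Tom- cells of the group against 130 and 121 CPM. Ly6c1 was at 191 and 146 CPM against 524 and 459 CPM. Sema3c was at 5.06 and 10.2 CPM against 60.3 and 39.4 CPM. Of 5 markers of Aregs, the CD142 positive regulatory progenitors, none passed, and F3, which encodes CD142, was at 287 and 460 CPM against 251 and 326 CPM.

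Other cell types were scarce in the group. The endothelial gene Cdh5 had no UMI and Pecam1 none in the Tom+ and 6 in the Tom- cells, with a summed level of 12 endothelial markers of 29.3 and 38.1 CPM, most of it Tek. Summed immune markers were at 40.5 and 22 CPM against 412 and 174 CPM, led by Ptprc in the Tom+ and Cd68 in the Tom- cells, and 8 of 9 tested were at least 2-fold lower in both libraries, against 1.31% of all genes. Ptprc had 8 UMIs in the Tom+ cells, 87.5% of them in 1 cell, and none in the Tom- cells. All 10 mesenchymal markers were tested and none passed 2-fold in both libraries, with medians of -0.18 and 0.09, and Pdgfra was at 354 and 356 CPM against 381 and 293 CPM.

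Vtn is also known from pericytes, so mural markers were read. Rgs5 had no UMI in the Tom+ and 3 in the Tom- cells of the group, and Kcnj8 had 3 and none. Higd1b was at 4.05 and 3.49 CPM against 0.25 and 0.29 CPM, from 4 and 13 UMIs. Of 5 tested mural genes none was higher and 1, Acta2 (3.03 and 8.32 CPM against 12.7 and 27 CPM), lower by 2-fold in both libraries, against 1.31% of all genes lower, and their summed level was 215 and 214 CPM against 191 and 216 CPM, most of it Des.

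**Figure D3:**
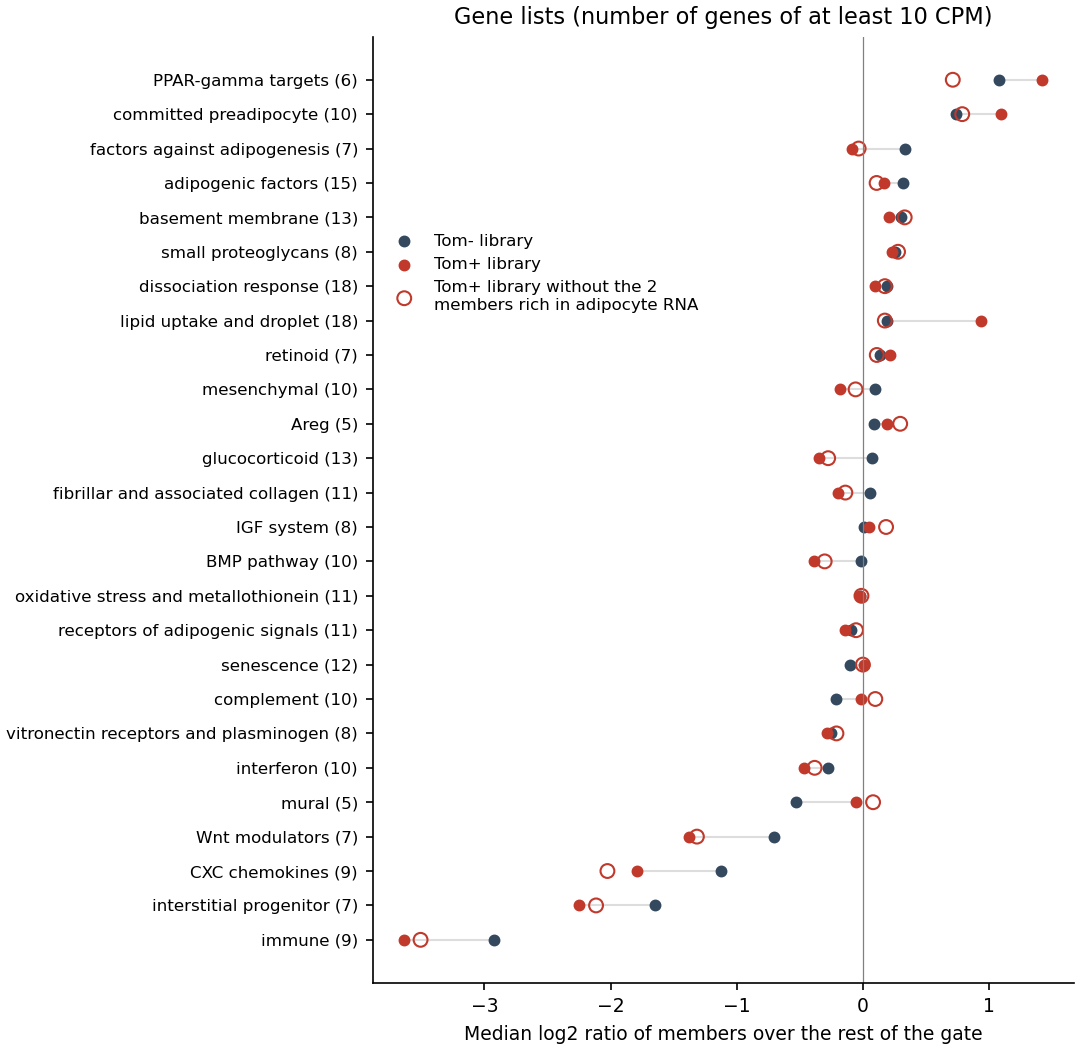
Median log2 ratio of the Vtn/Cxcl14/G0s2 cells over the other gate cells (horizontal axis) for each gene list with at least 5 genes of 10 CPM (vertical axis, number of such genes in parentheses). Filled points are the libraries and open circles the Tom+ library without cells rich in adipocyte RNA, 2 of them in the group. This moves the lipid uptake and droplet list from 0.94 to 0.17 and the PPAR-gamma targets from 1.42 to 0.71.

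Of 13 basement membrane genes 8 in the Tom+ and 9 in the Tom- library were higher in the group, and none passed 2-fold in both. Their medians were 0.21 and 0.30 beside 0.02 and 0.07 for all genes. Col4a1 was at 2274 CPM in the Tom+ and 1484 CPM in the Tom- cells of the group against 1444 and 955 CPM, and Col15a1 at 437 and 364 CPM against 170 and 219 CPM. Hspg2, which encodes perlecan, had log2 ratios of 0.81 and 0.60, and Nid2, a nidogen, 0.81 and 0.73. Of 11 fibrillar and associated collagens 1 was at least 2-fold lower, against 1.31% of all genes. It was Col14a1, at 94.1 and 34.6 CPM against 209 and 143 CPM. Sparcl1, a matricellular protein, was at 1140 and 1221 CPM against 714 and 728 CPM.

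Partners of Vtn and relatives of Cxcl14 were read next. Of 8 vitronectin receptor and plasminogen genes none passed 2-fold, with 5 of 8 in the Tom+ and 7 of 8 in the Tom- library below 0 and medians of -0.29 and -0.25. Itgav, the integrin chain that binds vitronectin, was at 52.6 and 52.9 CPM in the Tom+ and Tom- cells of the group against 80.6 and 74.3 CPM. Of 9 tested CXC chemokine and receptor genes, Cxcl14 itself apart, 5 were at least 2-fold lower in both libraries (1.31% of all genes were), with medians of -1.79 and -1.12. Cxcl12, the chief stromal chemokine of the family, was at 913 and 985 CPM against 672 and 869 CPM, and Ackr3, its scavenging receptor, at 174 and 202 CPM against 404 and 458 CPM.

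Of 7 tested Wnt modulators 3 were at least 2-fold lower in both libraries, against 1.31% of all genes, with medians of -1.38 and -0.70. Sfrp2, a secreted Wnt modulator, was at 20.2 CPM in the Tom+ and 67.1 CPM in the Tom- cells of the group against 219 and 238 CPM. Of 10 BMP pathway genes none passed, although Bmp4 was at 39.4 and 35.7 CPM against 14.8 and 19.9 CPM. Mesothelial cells express Bmp4 too, with a UMI in 54.4% and 57.4% of thinned cells, against 28.1% and 18.9% of the group. Of 13 glucocorticoid genes only Hsd11b1 passed, against 0.198% of all genes, with medians of -0.35 and 0.07. The receptor gene Nr3c1 was at 142 and 119 CPM against 152 and 122 CPM, and the target Tsc22d3 at 57.6 and 80.2 CPM against 55.9 and 50.1 CPM.

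Senescence genes showed no common direction. Of 12 tested none passed 2-fold in both libraries, with medians of 0.01 and -0.10. Cdkn1a, which encodes p21, was at 160 CPM in the Tom+ and 167 CPM in the Tom- cells of the group against 281 and 294 CPM, a log2 ratio of -0.81 in each. In thinned cells it was detected in 31.3% and 36.9% of the group, 43.7% and 51.9% of the other gate cells and 55.6% and 53.2% of mesothelial cells. Cdkn2a, the gene of p16, gave 1 UMI in the Tom+ and 4 in the Tom- cells of the group, or 1.01 and 1.07 CPM against 4.81 and 4.40 CPM. At that depth a difference in Cdkn2a between the Tom+ and Tom- cells of the group was not detectable.

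**Figure D4:**
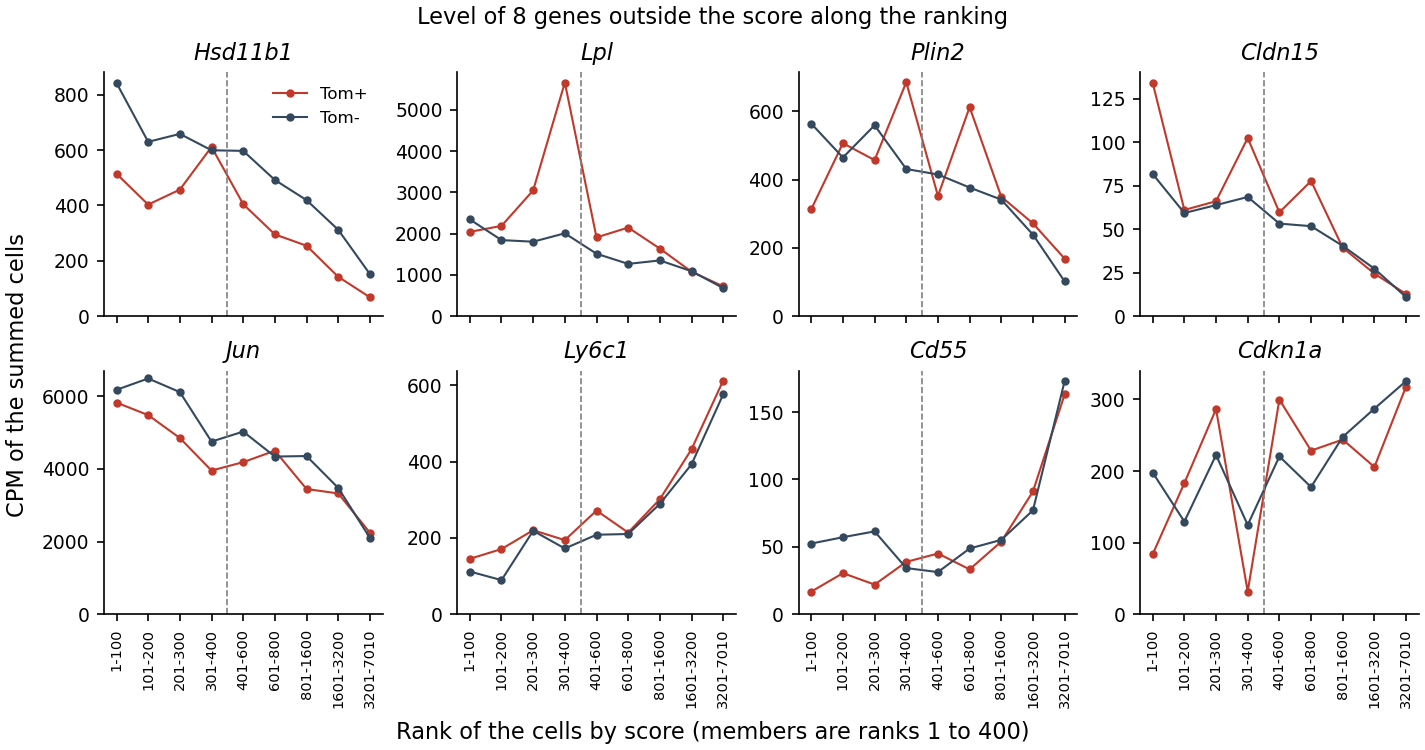
CPM of 8 genes that are not in the score (vertical axes) in gate cells summed by rank of the score (horizontal axis, high scores at the left), for the Tom+ and Tom- libraries. The dashed line ends the 400 Vtn/Cxcl14/G0s2 cells; Hsd11b1 in the Tom- library runs from 843 to 152 CPM, and the Tom+ peak of Lpl in ranks 301 to 400 (5662 CPM, 16 cells) includes the adipocyte-rich cell of rank 323.

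The pattern of these genes graded with the score and did not begin at the last cell taken. In the Tom- library Hsd11b1 was at 843, 630, 659 and 599 CPM in the 4 successive bands of 100 cells of the group, 597 CPM in ranks 401 to 600, 419 CPM in ranks 801 to 1600 and 152 CPM in the last band. Cldn15 went from 81.8 to 10.9 CPM between the first and the last band of that library. Ly6c1 ran the other way, from 112 to 576 CPM. In the Tom+ library the bands of the group held only 14 to 24 cells, and the values scattered more.

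The Vtn/Cxcl14/G0s2 cells lay near each other in the rest of their RNA, but not as a closed cluster. In principal components made without the score genes, on average 22.1% of the 20 nearest cells of a cell of the group were also of the group, against 4.45% for the other gate cells and 5.71% of the gate. The share was 16.3% for Tom+ and 23.3% for Tom- cells of the group. None of the 20 was of the group for 17.4% of the Tom+ and 5.44% of the Tom- cells. Of the 400, 258 (64.5%) fell in a cluster of 2084 cells led by Psat1, Aspa and the score gene Vtn, with G0s2 also among its 8 leading genes, 68 in a cluster led by Vdr, Adamts9 and Thbd, and 51 in a cluster led by Gsc, Aspn and Cd36.

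The share of the group was lower in the Tom+ library within each of these clusters. In the Psat1 cluster it was 6.58% (4.55 to 9.17%) in the Tom+ and 14.1% (12.5 to 15.9%) in the Tom- library. In the Gsc cluster it was 3.93% (2.38 to 6.07%) and 20.6% (14.6 to 27.9%). In the Vdr cluster it was 5.77% (2.67 to 10.7%) and 8.79% (6.76 to 11.2%), where the intervals overlap. The difference between the libraries in the whole gate was thus seen inside clusters too, though in the Vdr cluster it was within the counting error.

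Within the group the cells of each cluster carried its leading genes, which the clustering fixes. In the Tom- library Thbd, which encodes thrombomodulin, was at 166 CPM in the 226 cells of the Psat1 cluster, 619 CPM in the 59 of the Vdr cluster and 66.0 CPM in the 32 of the Gsc cluster. Aspn, a small proteoglycan, was at 38.4, 70.6 and 271 CPM, and Mgp, matrix Gla protein, at 618, 1041 and 1928 CPM. Meox1 was at 12.9, 33.9 and 121 CPM, highest in the Gsc cluster. Hsd11b1, at 686, 951 and 448 CPM, exceeded the other cells of the same cluster in each (355, 504 and 221 CPM), with log2 ratios of 0.95, 0.92 and 1.02. Lpl had ratios of 0.51, 0.68 and 1.35 and P2ry14 of 1.14, 0.87 and 0.42, the last with an interval from -0.45 to 1.23. In the Tom+ library the ratios of Hsd11b1 were 1.76, 0.35 (-0.06 to 0.74) and 1.43 and those of P2ry14 1.85, -0.38 (-3.47 to 1.57) and 1.40, so the 9 Tom+ cells of the Vdr cluster did not stand above their cluster in either gene beyond the counting error. Cd300lg, first of the leading genes of the whole gate, had Tom- ratios of 0.46 (-0.04 to 0.94), 2.25 and 0.98. Its Tom+ ratios were 0.15 (-1.52 to 1.46), 0.43 (-1.07 to 1.63) and 1.65. In the Psat1 cluster it was thus within the counting error in both libraries.

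Pparg and Fabp4 were also set against the other cells of each cluster. In the Tom- library Pparg had log2 ratios of 0.18 (-0.13 to 0.48), 0.26 (-0.45 to 0.90) and 0.56 (-0.08 to 1.16) in the Psat1, Vdr and Gsc clusters, all with intervals that include 0, against 0.90 in the whole gate. In the Tom+ library without the cells rich in adipocyte RNA they were 0.24 (-0.85 to 1.17), 1.28 (0.15 to 2.26) and 0.42 (-0.47 to 1.19), against 0.92, so the Vdr cluster, on 10 UMIs, lay above the whole gate and the other two below it. Fabp4 had Tom- ratios of 0.21, 0.60 and 0.24, against 0.78 in the whole gate, and Tom+ ratios without those cells of 0.57, 0.48 and 0.28, against 0.63. With those cells the Tom+ ratios in the Psat1 cluster were 1.89 for Pparg and 2.29 for Fabp4.

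Within the Psat1 cluster alone, fewer genes set the group apart. Of 8073 genes, 5 were at least 2-fold higher in both libraries, Adap2, Bmp4, H2-Q10, Lcn2 and P2ry14, and 31 were lower. Only Adap2 and P2ry14 were also among the 16 of the whole gate. The counts include the cells rich in adipocyte RNA and were not repeated without them. Leaving such cells out took the Tom+ cells of the group in this cluster from 32 to 30. The log2 ratios of P2ry14 were then 2.15 in the Tom+ and 1.14 in the Tom- library. Lcn2 was uneven, with 58.9% of its Tom+ UMIs in 1 cell.

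Other ways of ranking the same gate gave largely other cells. The 400 highest cells for Cd36, Meox2 and Aspn shared 48 cells with the group (12% of each), those for Cfd, Car3 and Itm2a 32 (8% of each) and those for Vdr, Thbd and Adamts9 22 (5.5% of each), where 5.71% of the gate is in each ranking. Hsd11b1 was at 503 CPM in the Tom+ and 685 CPM in the Tom- Vtn/Cxcl14/G0s2 cells, and at 217 and 277 CPM in the Cd36 cells, 79.2 and 295 CPM in the Cfd cells and 245 and 393 CPM in the Vdr cells. Lpl was closest in the Cd36 cells, at 2259 and 1795 CPM. Cd300lg was higher in the Cd36 cells, at 53.9 and 50.7 CPM against 39.4 and 28.7 CPM in the Vtn/Cxcl14/G0s2 cells, and Cldn15 was near, at 70.5 and 65.5 CPM against 88.0 and 68.7 CPM. Leaving out the cells that both rankings took, the log2 ratio of the Vtn/Cxcl14/G0s2 over the Cd36 cells was -1.32 and -1.0 for Cd300lg and 0.19 (-0.25 to 0.62) and 0.24 (-0.11 to 0.60) for Cldn15. It was -0.18 and -0.16 for Fabp4, -0.70 and -0.33 for Col4a1 and -0.12 (-0.31 to 0.06) and 0.96 for Plin2. For Hsd11b1 it was 1.40 and 1.46, and for Lpl 0.36 and 0.36. The low level of Cdkn1a was shared with the Cd36 cells, which had 158 CPM in the Tom+ and 180 CPM in the Tom- library. For Cdkn1a the same log2 ratio was 0.25 (-0.02 to 0.51) and -0.17 (-0.36 to 0.02). Without the cells rich in adipocyte RNA the ratio of Fabp4 was -0.78 and 0.13. Pparg was at 65.7 CPM in the Tom+ and 44.5 CPM in the Tom- Vtn/Cxcl14/G0s2 cells, 45.0 and 50.7 CPM in the Cd36 cells, 28.9 and 41.0 CPM in the Cfd cells and 20.7 and 15.1 CPM in the Vdr cells. Without the cells rich in adipocyte RNA it was at 40.1 and 43.4 CPM in the group, 41.5 and 44.8 CPM in the Cd36 cells and 16 and 26.2 CPM in the Cfd cells. Leaving out the cells in both rankings, its log2 ratio over the Cd36 cells was 0.35 (-0.20 to 0.87) in the Tom+ and -0.16 (-0.56 to 0.25) in the Tom- library with the cells rich in adipocyte RNA, and -0.24 (-0.92 to 0.39) and 0.02 (-0.40 to 0.45) without them, so the signs turned. Over the Cfd cells it was 1.26 (0.56 to 1.97) and 0.15 (-0.24 to 0.54) with them, and 1.33 (0.61 to 2.05) and 0.83 (0.37 to 1.31) without them. Car3 is both in the limit for adipocyte RNA and in the Cfd ranking, so leaving such cells out alters the Cfd cells by construction. In the Tom- library their Car3 level went from 332 to 17.5 CPM and their Pparg level from 41.0 to 26.2 CPM. The rise of the Tom- ratio to 0.83 therefore says little about the group.

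The last comparison asked how Tom+ and Tom- cells of the group differ. The sort was visible in the reporter. tdTomato was at 252 CPM (222 to 285) in the 69 Tom+ cells and 15.8 CPM (12.1 to 20.4) in the 331 Tom- cells, and at 150 and 13.2 CPM in the other gate cells. It was uneven among the Tom+ cells, at 11.2 CPM in the 14 cells of ranks 1 to 100, and at 15.3 CPM (2 UMIs) in the 9 cells of the Vdr cluster against 351 CPM in the other Tom+ cells of that cluster, both near the Tom- level. At least 5 tdTomato UMIs were found in 8 Tom+ cells and in no Tom- cell, and the median was 0 in both.

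Of 3022 genes that averaged 50 CPM or more in the group, 25 (0.827%) were at least 2-fold higher in the Tom+ cells and 16 (0.529%) at least 2-fold lower. Without the 4 cells rich in adipocyte RNA 14 were higher and 10 lower, and with median-of-ratios size factors 19 and 24. The median log2 ratio of all genes was 0.07. Several of the largest ratios came from the adipocyte-rich cells. Plin1, the coat protein of adipocyte droplets, was at 130 CPM in the Tom+ and 1.34 CPM in the Tom- cells, and Car3, a carbonic anhydrase of adipocytes, at 327 and 22.8 CPM. Neither had a UMI in the Tom+ cells once the 2 were left out. Fabp5 had a log2 ratio of 3.02, and 0.49 without the adipocyte-rich cells, with 83.1% of its Tom+ UMIs in 1 cell. Prkar2b went from 2.20 to 1.13.

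Of the other genes high in the Tom+ cells, Cd36, Ctgf, Fndc1 and Col14a1 were above 2-fold without those cells too. Cd36, a fatty acid transporter, was at 156 CPM in the Tom+ and 20.9 CPM in the Tom- cells of the group, a log2 ratio of 2.90, and 1.97 (1.45 to 2.49) without them, beside 1.83 in the other gate cells. It was detected in 8 of 69 Tom+ cells, and without the adipocyte-rich cells and the 1 other Tom+ cell with the most Cd36 the log2 ratio was 1.35 (0.75 to 1.94), and 1.74 on leaving out the highest Tom- cell as well. Ctgf, a target of TGF-beta, was at 149 and 39.7 CPM, a log2 ratio of 1.90 (1.57 to 2.24) beside -0.26 (-0.34 to -0.18) in the other gate cells, the opposite direction. Its UMIs sat in 12 Tom+ cells, 30.6% of them in 1 cell, and 1 Tom- cell held 31.1% of the Tom- UMIs. Without the adipocyte-rich cells and that Tom+ cell the ratio was 1.53 (1.15 to 1.90), and 2.05 without that Tom- cell as well. Fndc1, a fibronectin domain protein, was at 109 and 34.6 CPM with 1.66 beside 1.20. Col14a1 was at 94.1 and 34.6 CPM with 1.44 beside 0.55, with 37.6% of its Tom+ UMIs in 1 of 16 cells, and its ratio was 0.92 (0.45 to 1.38) without that cell and the adipocyte-rich cells, under 2-fold, and 1.01 on leaving out the highest Tom- cell as well.

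Genes lower in the Tom+ cells had the same direction in the rest of the gate. Ptx3, a pentraxin of innate defence, was at 66.8 CPM in the Tom+ and 249 CPM in the Tom- cells of the group, a log2 ratio of -1.90 beside -0.86. Tcf21, a mesenchymal transcription factor, was at 40.5 and 125 CPM with -1.63 beside -0.36, and Gdf10, a BMP-like factor, at 132 and 334 CPM with -1.33 beside -0.47. Penk, which encodes proenkephalin, was at 472 and 1104 CPM with -1.23 beside -0.97, and Ccl2, a monocyte chemoattractant, at 543 and 1205 CPM with -1.15 beside -0.81. Hspa1b, a heat shock protein, was at 315 and 658 CPM with -1.06 beside -0.15, and -0.94 without the cells rich in adipocyte RNA. Vit, 6030408B16Rik, Fmo1 and Hp had ratios from -1.52 to -1.10, and Hp was at -1.11 in the other gate cells as well. Without the cells rich in adipocyte RNA Fmo1 was at -0.97 and Hp at -1.62, and of the 10 genes only Fmo1 and Hspa1b were then within 2-fold. Leaving out the other Tom+ cell with the most UMIs of the gene as well, Hp was at -2.03, Ptx3 at -2.30 and Ccl2 at -1.40. On leaving out the highest Tom- cell too, these 3 genes were at -1.55, -1.84 and -1.23. Since each fraction is 1 library, these ratios have no replicate check.

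**Figure D5:**
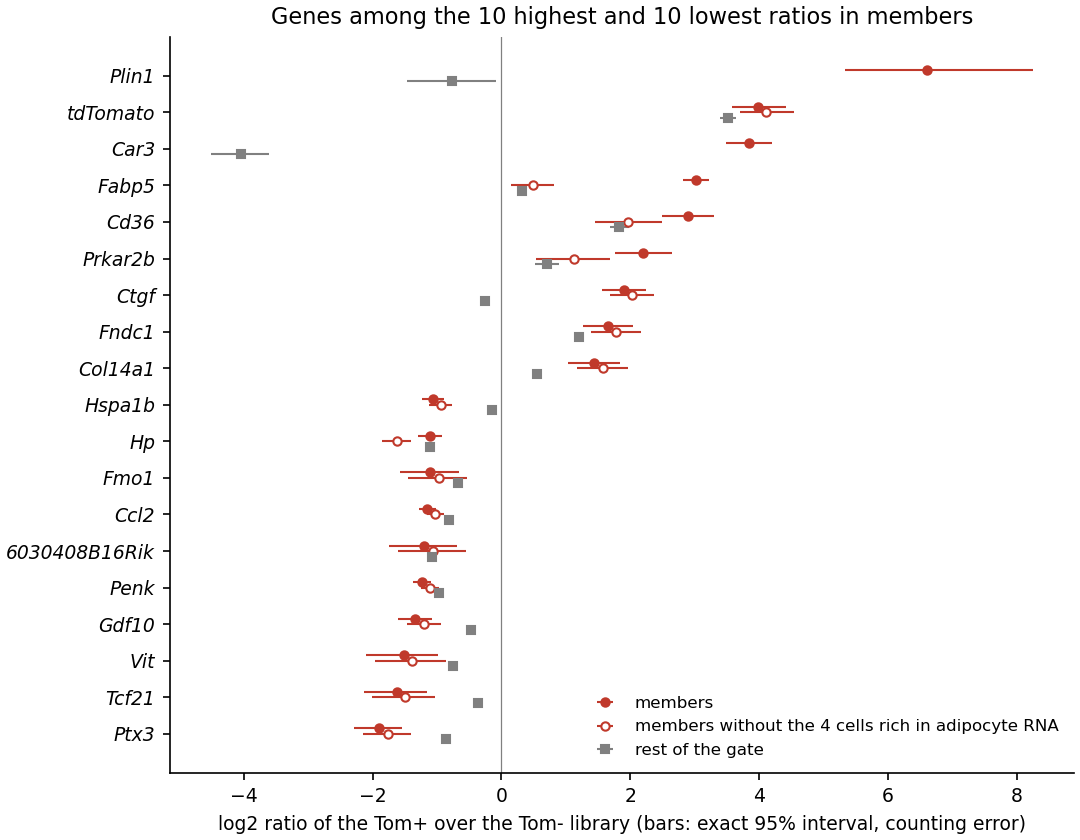
Log2 ratio of the Tom+ over the Tom- library (horizontal axis) for genes among the 10 highest and 10 lowest of the Vtn/Cxcl14/G0s2 cells (vertical axis), with exact 95% intervals for counting error. Filled red points are the 400 cells, open points the same without the 4 cells rich in adipocyte RNA and grey squares the other gate cells; Fabp5 drops from 3.02 to 0.49 between the filled and the open point, and Ctgf keeps 2.03.

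With the adipocyte-rich cells left out, the log2 ratio of Tom+ over Tom- in the group was -0.11 for Pparg, with an interval from -0.68 to 0.42 that includes 0 and leaves room for a difference in either direction. Lpl had 0.50 (0.44 to 0.57), Fabp4 0.13 (0.05 to 0.21) and Col4a1 0.73 (0.66 to 0.81) in the same cells. In the other gate cells, with none left out, Col4a1 was at 1444 CPM in the Tom+ and 955 CPM in the Tom- library. Fabp4 was at 1264 and 1065 CPM there, so Col4a1 and Fabp4 were higher in the Tom+ library outside the group too. Lpl was nearly level there, at 942 and 935 CPM.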

How the data were processed

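Single-cell RNA-seq libraries of the CD31- CD45- Tom+ and Tom- cells of gonadal fat were made with the 10x Genomics kit for 3′ ends. The authors processed them with Cell Ranger 3.0.2, and the submitters' processing notes name the genome build mm10. The deposited matrices hold UMI counts per gene (31054 genes) and barcode, without normalization. Cells were filtered and scored as given in the report. The members and gene lists were chosen with earlier results of these data known. Counts of the cells of each library were summed, leaving 17 gate and score genes out of the counted genes, and given as CPM of the sum. Ratios have exact conditional (Clopper-Pearson) 95% intervals, levels exact Poisson intervals and shares exact binomial intervals, all for counting error only, since 1 library per fraction allows no test. A gene counted as higher or lower past 2-fold, for members over the other gate cells in both libraries at a gate mean of at least 10 CPM, and for Tom+ over Tom- at a mean of at least 50 CPM. Genes without a UMI were bounded by 3 UMIs.

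Named genes were the 4 score genes, tdTomato, Cdkn2a, Cdkn1a, examples from the 32 gene lists, the 25 largest and 15 smallest ratios of members over the other gate cells (by the library nearer 0), the 10 highest and 10 lowest Tom+ over Tom- ratios and the 10 most abundant genes. A few genes that this rule takes in are not reported here. Wt1, Lcn2 and H2-Q10 were named after their values were seen. Shares of cells with a UMI were read after thinning to 6959 UMIs, which dropped 5 Tom+ and 30 Tom- members. Neighbours and Leiden clusters (resolution 0.5) used 30 principal components of 2000 variable genes without the score genes (scanpy 1.11.5, leidenalg 0.10.2). Doublets were called with Scrublet in scanpy. Summing and intervals used Python 3.11.15, numpy 2.4.6 and scipy 1.17.1, and were tested on simulated data. Gene positions are from GENCODE on mm10 and promoters from RefSeq on GRCm38.p6, the same assembly. Alternatives changed the number of cells, the score, the gate, the weighting and the minimum level. Leaving out cells rich in adipocyte RNA, barcodes in both libraries and clusters under 200 cells, and the cell with most UMIs of a gene, was added after the data were seen.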

Additional observations from a re-analysis of the deposited data

Results flagged for a closer look

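Barcodes outside the gate were read for the same score. Of the barcodes with no more than 1000 genes, which the comparisons do not use, 138 of 1892 in the Tom+ library (7.29%) and 342 of 4969 in the Tom- library (6.88%) reached the lowest score of the Vtn/Cxcl14/G0s2 cells, with a median of 621.5 and 729.5 UMIs. No control barcodes of like depth were read, so the shares have no background level to be set against. Mesothelial cells reached that score in 0 of 261 and 3 of 1917, at far higher median depths of 17891 and 14678 UMIs. At such depth 1 UMI of a score gene adds far more to the score than in a gate cell, and whether these barcodes are cells was not tested.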

How the results depend on the processing

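The main results were recomputed under planned and added alternatives, none of which turned the sign of the Pparg or tdTomato log2 ratios, while median-of-ratios size factors turned the balance of genes higher and lower in Tom+ cells from 25 and 16 to 19 and 24. No paired analysis was possible because the labels carry no replicate numbers and each fraction has 1 library. The Tom+ share of the group (17.25%) was 40.25% when the same percent of each gate was taken, which fixes it, and 21.5%, 22% and 13.5% with a score without Vtn, without Cxcl14 or without G0s2. Genes at least 2-fold higher (16) numbered 25 without Vtn, 26 with no limit on Pi16 and Dpp4, 39 at a minimum of 2 CPM and 3 at 100 CPM, and those lower (106) 198 and 19 at these minimums. The Tom+ log2 ratio of Pparg (1.63) was 0.24 for the 200 and 1.11 for the 800 highest cells, 1.12 with the same percent of each gate, 1.14 without Cxcl14, 0.42 without G0s2, 0.75 with mitochondrial shares under 5%, 1.15 with cells weighted equally, 0.92 without cells rich in adipocyte RNA and 0.84 without barcodes in both libraries, while the Tom- ratio (0.90) stayed within its counting interval (0.65 to 1.13) under all 16, between 0.74 and 1.06 and so on either side of 2-fold. The tdTomato log2 ratio (3.99) was 4.51 for the 200 highest cells and 5.34 without G0s2. Genes at least 2-fold different between Tom+ and Tom- cells of the group numbered 72 for the 200 highest cells, 23 with mitochondrial shares under 5%, 1135 and 20 at 2 and 100 CPM, and 24 without cells rich in adipocyte RNA. The cause of these moves was not tested, other than that a lower minimum tests more genes on fewer UMIs. The 988688 UMIs of the 69 Tom+ cells limit every Tom+ value, where a gene at 10 CPM rests on about 10 UMIs.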
